A study of Mus musculus with 8 samples.

Results

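The genes that write and remove DNA methylation were followed across hematopoietic clusters and endothelium of wild type and Sl/Sl mouse embryos. They are 9 of the 24015 genes in the count table and were chosen by name: the maintenance genes Dnmt1 and Uhrf1, the de novo methyltransferase genes Dnmt3a and Dnmt3b with their cofactor gene Dnmt3l, Tet1, Tet2 and Tet3, and the glycosylase gene Tdg. Of these, 8 had at least 1 count in some library and 7 had enough counts to be tested. Dnmt3l and Tdg were not tested.

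RNA was measured by Smart-seq2, a full-length cDNA protocol for small cell numbers, in 8 libraries of 100 sorted cells each, with 2 libraries in each of 4 groups. All cells came from the E11.5 AGM (aorta-gonad-mesonephros) region with the vitelline and umbilical arteries (AGM+VU), the site at which hematopoietic stem cells arise from the aortic wall. Both sorts took VE-Cadherin+ cells free of Ter119, a red cell antigen. Kit+ cells among them were the hematopoietic clusters, and cells that were Kit-, CD41- and CD45- were the endothelium. The Sl/Sl embryos carried a homozygous deletion that takes out Kitl, which encodes the ligand of the Kit receptor, in every tissue, and the comparison group was wild type. The Steel line was kept on C57BL/6, and a separate strain for the wild type embryos is not given in the sources used here. Each library came from a pool of 1 to 4 embryos, over 2 sorting experiments. Which library belonged to which sort is not given in the sources used here, so the p-values below measure the spread between these libraries, which may be in part technical.

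DNA methylation is placed on cytosines, mostly where a G follows (CpG). Dnmt3a and Dnmt3b add it to unmethylated DNA, and Dnmt1 copies it to the new strand after replication with the help of Uhrf1, which binds hemimethylated sites. Tet enzymes oxidise the methyl group, and Tdg removes the oxidised base so that repair can restore an unmodified cytosine. In blood formation Dnmt3a and Tet2 are best known as genes whose loss alters the self-renewal of stem cells.

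The counts on genes summed to between 8933236 and 13428214 per library, and between 12844 and 14309 genes had a count. Kitl had 1250 and 923 counts in wild type endothelium against 6 and 2 in Sl/Sl endothelium, and 110 and 0 against 1 and 3 in clusters. The summed level of 14 endothelial marker genes ran from 6392 to 7215 CPM (counts scaled to a common library total, after TMM factors) in endothelium and from 441 to 2971 in clusters. That of 14 hematopoietic marker genes ran from 166 to 185 CPM in endothelium and from 1447 to 2032 in clusters. By these sums both sets carried the markers of their cell type, and the cluster libraries, from cells sorted on VE-Cadherin, also held endothelial transcripts. In Sl/Sl clusters replicate 1 the endothelial sum (2971 CPM) was above the hematopoietic sum (1447 CPM). Which cells these endothelial transcripts came from was not tested. The genes of the sort markers were less uniform. Cdh5 (VE-Cadherin) ran from 12 to 218 CPM in clusters and from 453 to 655 in endothelium. Kit ran from 225 to 379 CPM in clusters and from 64.1 to 84.7 in endothelium, and Ptprc (CD45) from 106 to 304 and from 0.606 to 1.27. Itga2b (CD41) overlapped, at 8.95 to 22 CPM in clusters and 4.21 to 10.7 in endothelium. Of 12 germ cell markers, some were high in wild type clusters replicate 1 and others elsewhere. That library had 889 counts of Dppa3, 219 of Nanog and 94 of Tfap2c, where the other 7 libraries had 0 of Dppa3 and Tfap2c and between 2 and 19 of Nanog. Ddx4 had 29 counts there against 187 in wild type clusters replicate 2 and 83 in Sl/Sl clusters replicate 2, and Nanos3, with 23 counts, was lowest there among the clusters. Sall4 and Prdm1 were highest in endothelium, while Pou5f1 and Mael were at 0 in all 8 libraries.

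Levels were first compared between the genes, as RPKM, counts scaled to the exon length of the gene and to the total of the library. In wild type clusters Dnmt3b was the highest, at 60.2 ± 1.46 RPKM (mean ± SD, n = 2), above Uhrf1 at 41.9 ± 19.2, Dnmt1 at 32.3 ± 14.6 and Dnmt3a at 31.6 ± 0.107. The Dnmt3b libraries did not overlap those of Uhrf1, while Uhrf1, Dnmt1 and Dnmt3a could not be ordered. The Tet genes were lower, with Tet3 at 7.58 ± 3.33, Tet2 at 4.75 ± 1.66 and Tet1 at 2.94 ± 0.908 RPKM, neighbours in this order overlapping. In wild type endothelium the order differed. Uhrf1 led at 18.3 ± 10.9 RPKM and its libraries overlapped those of Dnmt1 at 14.7 ± 2.18, followed by Dnmt3a at 11.7 ± 1.66, Tet2 at 10.1 ± 6.84 and Tet3 at 5.66 ± 0.946. Dnmt3b came sixth at 4.01 ± 0.286 RPKM, below both Tet3 libraries and above Tet1 at 1.45 ± 0.813.

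The same order held in part in the mutant. In Sl/Sl clusters Dnmt3b at 32.3 ± 4.76 RPKM overlapped Dnmt3a at 30.3 ± 7.64, which in turn overlapped Uhrf1 at 26.2 ± 2.61. Dnmt1 followed at 19.9 ± 4.82 RPKM, and the Tet genes lay at 4.16 ± 0.211 (Tet2), 4 ± 1.04 (Tet3) and 1.36 ± 0.27 (Tet1). In Sl/Sl endothelium Uhrf1 was at 20.9 ± 4.85, Dnmt1 at 14.4 ± 4.98, Dnmt3a at 10.8 ± 4.89 and Tet2 at 10.4 ± 1.03 RPKM, each overlapping the next of these. Dnmt3b at 6.26 ± 0.367 and Tet3 at 5.43 ± 0.994 overlapped each other, and Tet1 was again the lowest of the 7 at 1.74 ± 0.1 RPKM.

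**Figure D1:**
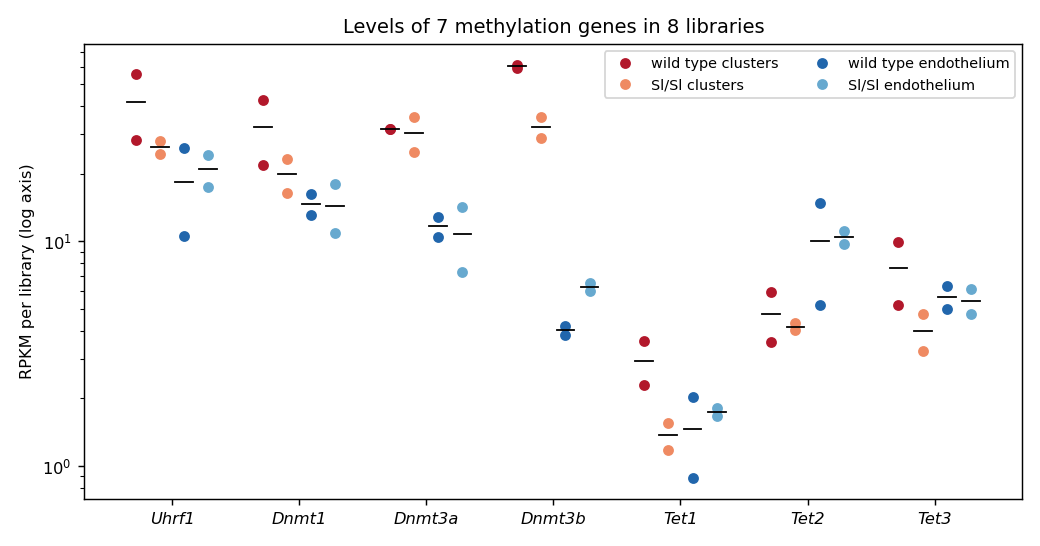
RPKM of the 7 tested genes in each of the 8 libraries on a log axis, with points for libraries, colours for the 4 groups and a bar for the mean of each group (n = 2). Dnmt3b falls from the top in wild type clusters (60.2 RPKM) to sixth place in wild type endothelium (4.01 RPKM), while Tet2 is the 1 of the 7 that lies higher in endothelium in wild type (10.1 against 4.75 RPKM); in Sl/Sl the means of all 3 Tet genes lie higher in endothelium.

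Dnmt3l, a catalytically inactive partner of the de novo enzymes in germ cells and early embryos, had 0 counts in all 8 libraries. The limit that such a zero leaves, 3 counts in a library, comes to between 0.223 and 0.336 CPM on plain totals and covers counting error only. Tdg had between 0 and 11 counts per library. Its level cannot be read from these counts. Of its exon bases 92% also belong to other genes of the table (Glt8d2 on the opposite strand and Gm9855 on the same strand). Of the 75-base windows in its exons 81.6% have a second exact copy in the mm9 genome. How reads from such stretches were counted is not given in the sources used here, and the reason for the low counts was not tested. Gm9855 itself had 0 counts in every library. For the 7 tested genes the share of such windows was 15.1% in Uhrf1, 4.98% in Dnmt3b and below 0.4% in the others, and none of them overlaps another gene.

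The comparison of endothelium with clusters asked how the methylation machinery differs between the vessel wall and the blood cells that arise from it. Dnmt3b and Dnmt3a were lower in endothelium and Tet2 was higher, and these 3 of the 7 tested genes passed an adjusted p of 0.1 in edgeR's quasi-likelihood test over all 13908 genes tested, with both genotypes together. Of all genes tested 16.6% passed, 8.48% higher and 8.12% lower in endothelium. The median log2 fold change of the 7 genes was -0.62, against -0.07 over all genes tested. In bulk libraries such as these, a smaller number of expressing cells cannot be told apart from less RNA per cell.

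Dnmt3b (chromosome 2, 153475185 to 153513466, plus strand, mm9) had 238 and 259 CPM in wild type clusters, 123 and 145 in Sl/Sl clusters, 18.6 and 17.5 in wild type endothelium, with 27.1 and 30 in Sl/Sl endothelium. The lowest cluster library was thus above the highest endothelial library by a wide margin, and the 4 groups did not overlap each other. The log2 fold change was -3.01 (SE 0.23), 8.04-fold lower in endothelium, with an adjusted p of 0.000126 in edgeR. Dnmt3b ranked 26 of all 13908 genes by p. It was also called within each genotype, at -3.78 (SE 0.33, adjusted p = 0.0011, edgeR) in wild type and -2.23 (SE 0.31, adjusted p = 0.0109, edgeR) in Sl/Sl. Leaving out any of the 8 libraries kept the value for both genotypes between -3.06 and -2.95.

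Dnmt3a (chromosome 12, 3806980 to 3914443, plus strand, mm9), the other de novo methyltransferase gene, had 291 and 308 CPM in wild type clusters and 244 and 333 in Sl/Sl clusters. In endothelium the wild type libraries had 130 and 111 CPM and the Sl/Sl libraries 148 and 77.6. The cell types did not overlap and the genotypes did. The log2 fold change was -1.33 (SE 0.24, adjusted p = 0.00953, edgeR), a difference of 2.52-fold. Within wild type it was -1.31 (SE 0.34, adjusted p = 0.0685, edgeR), a call that was lost when any of the 4 wild type libraries was left out (adjusted p up to 0.228). Within Sl/Sl it was of the same size, -1.36 (SE 0.34), with an adjusted p of 0.106 in edgeR and of 0.00547 in DESeq2, which called it. In edgeR it was also called in 6 of the 8 fits that left out a library. Dnmt3a and Dnmt3b were the 2 of 7 genes whose 4 endothelial and 4 cluster libraries did not overlap, against 19.7% of all genes tested.

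Tet2 (chromosome 3, 133126641 to 133207354, minus strand, mm9) went the other way. It had 50.5 and 32.1 CPM in wild type clusters and 36.2 and 37.1 in Sl/Sl clusters, against 48.9 and 145 in wild type endothelium, with 107 and 95 in Sl/Sl endothelium. Wild type endothelium replicate 1 lay within the range of the clusters and the other 3 endothelial libraries lay above it. That library also had the highest sum of 12 mesenchymal markers in endothelium, 2053 CPM. The sum was 349 CPM in wild type endothelium replicate 2 and 586 and 1387 CPM in Sl/Sl endothelium, and its part in the Tet2 values was not tested. The log2 fold change was 1.35 (SE 0.37, adjusted p = 0.0491, edgeR), 2.54-fold higher in endothelium. This call was lost without wild type endothelium replicate 2 (0.85, adjusted p = 0.188), without wild type clusters replicate 2 (adjusted p = 0.128) and without Sl/Sl clusters replicate 2 (adjusted p = 0.106), all in edgeR. Within a genotype it did not pass, at 1.23 (SE 0.52) in wild type and 1.46 (SE 0.53) in Sl/Sl, with adjusted p of 0.234 and 0.248 in edgeR. Without wild type endothelium replicate 1 the value in wild type was 1.81 and was called (adjusted p = 0.0864, edgeR).

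Since these 3 genes carried the difference between the cell types, the 150 bases before a start site of each are shown as annotated by RefSeq on GRCm38.p6, a later build than the mm9 of the counts, written 5′ to 3′ on the gene's own strand with every CpG in capitals.
Dnmt3b, chr2:153649299-153649448, plus strand: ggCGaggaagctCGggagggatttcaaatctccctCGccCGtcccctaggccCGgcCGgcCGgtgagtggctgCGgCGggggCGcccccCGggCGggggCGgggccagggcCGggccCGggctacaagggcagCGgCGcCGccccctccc
Dnmt3a, chr12:3806830-3806979, plus strand: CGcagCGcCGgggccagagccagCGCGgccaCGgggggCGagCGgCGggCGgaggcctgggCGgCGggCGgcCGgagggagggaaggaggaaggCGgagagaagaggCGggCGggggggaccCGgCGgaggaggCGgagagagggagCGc
Tet2, chr3:133544391-133544540, minus strand: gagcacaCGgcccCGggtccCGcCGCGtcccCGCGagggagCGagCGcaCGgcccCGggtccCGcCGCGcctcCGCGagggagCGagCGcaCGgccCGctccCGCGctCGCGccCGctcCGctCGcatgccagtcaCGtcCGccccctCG
All 3 windows are rich in the dinucleotide that these enzymes act on. The shown stretches hold 18 CpG in Dnmt3b, 21 in Dnmt3a and 30 in Tet2. Counted over the whole RefSeq window of 250 bases before to 50 after the start, Dnmt3b had 30, the first window of Dnmt3a 46 and Tet2 57, against a median of 7 over 32851 promoter windows. Such richness was not particular to these 3 genes. A window of Dnmt1 and a window of Uhrf1 held 33 each, and those of Tdg, Tet3 and Tet1 held 26, 22 and 17. Other windows held fewer, with 18 in the last of Dnmt3a, 12 and 2 in Dnmt1, 12 in Uhrf1 and 6, 4 and 3 in Dnmt3l. No methylation was measured here.

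Motifs were searched by their letters on both strands in the 16 RefSeq windows of the 9 genes, all of which were found in the table. TTGGCGC, an E2F sequence, was present in 1 window of Dnmt1 and in 2.45% of all windows. TTCCCGC, the other E2F sequence, and TGTGGT, a RUNX sequence, were present in 1 window of Uhrf1 and in 4.6% and 16.8% of all windows. CCGGAA, an ETS sequence, was present in the other window of Uhrf1 and in 14.9% of all windows. For the GATA factors AGATAA was searched, which 11.2% of all windows hold and none of the 16 does. The windows of Dnmt3a, Dnmt3b, Dnmt3l, Tet1, Tet2, Tet3 and Tdg held none of these 5 letter strings, which says only that the strings are not in these windows.

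The maintenance genes did not pass the test. Dnmt1 (chromosome 9, 20711650 to 20764332, minus strand, mm9) had 250 and 135 CPM in wild type clusters, 102 and 138 in Sl/Sl clusters, 84.4 and 108 in wild type endothelium, with 118 and 73.2 in Sl/Sl endothelium. Its log2 fold change, endothelium minus clusters, was -0.66 (SE 0.28, adjusted p = 0.173, edgeR). Uhrf1 (chromosome 17, 56442760 to 56462909, plus strand, mm9) had 188 and 101 CPM in wild type clusters, 101 and 83.7 in Sl/Sl clusters, 39.4 and 101 in wild type endothelium, with 92.7 and 68 in Sl/Sl endothelium. Its log2 fold change was -0.62 (SE 0.35, adjusted p = 0.293, edgeR). For both genes wild type clusters replicate 1 was the highest library, and the cell types overlapped. Without it the values were -0.41 for Dnmt1 and -0.36 for Uhrf1. Dnmt1 was called without wild type clusters replicate 2 (-0.88, adjusted p = 0.0931, edgeR) and Uhrf1 without wild type endothelium replicate 2 (-1.04, adjusted p = 0.096, edgeR). The value of Uhrf1 was -0.36 without wild type endothelium replicate 1. Wild type clusters replicate 1 is the library with Dppa3, Tfap2c and most of the Nanog counts, whose part in these levels was not tested.

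Tet1 (chromosome 10, 62267318 to 62342762, minus strand, mm9) and Tet3 (chromosome 6, 83312368 to 83391672, minus strand, mm9) were also not called. Tet1 had 46.8 and 31.6 CPM in wild type clusters, 16.3 and 20.6 in Sl/Sl clusters, 12.6 and 30.3 in wild type endothelium, with 24.5 and 27.2 in Sl/Sl endothelium, with a log2 fold change of -0.19 (SE 0.46, adjusted p = 0.851, edgeR). Tet3 had 101 and 55.8 CPM in wild type clusters, 35 and 48.5 in Sl/Sl clusters, 55.5 and 73.1 in wild type endothelium, with 53.7 and 71.1 in Sl/Sl endothelium, with a log2 fold change of 0.15 (SE 0.31, adjusted p = 0.818, edgeR). For these genes as well the highest library was wild type clusters replicate 1.

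Within wild type, 2 of the 7 genes were called (Dnmt3a and Dnmt3b) against 8.24% of all genes tested, and within Sl/Sl 1 of 7 (Dnmt3b) against 2.83%. The groups compared share no library, but both tests take their spread from the same fit of 8 libraries and are not independent. Each library also enters the comparison over both genotypes.

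**Figure D2:**
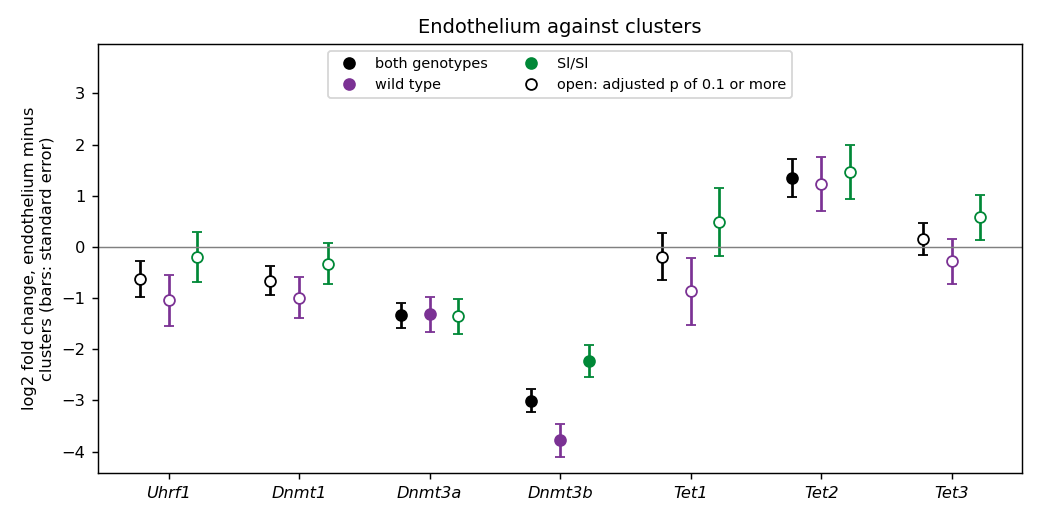
log2 fold change of endothelium minus clusters for the 7 tested genes, with standard errors, over both genotypes and within wild type and Sl/Sl; filled points have an adjusted p under 0.1 in edgeR. Dnmt3b lies at -3.01 over both genotypes, at -3.78 in wild type and at -2.23 in Sl/Sl, Dnmt3a lies near -1.3 in all 3 comparisons, and Tet2 lies above 0 in each.

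The makeup of the de novo and Tet families was compared within each library, where library scaling cancels. Dnmt3b was the larger part of the de novo pair in most clusters and the smaller part in endothelium. Within the Tet family Tet2 had the larger share in endothelium, and the share of Tet1 was larger in clusters than in endothelium. Dnmt3b made up 65.3% and 65.9% of the summed RPKM of Dnmt3a and Dnmt3b in wild type clusters and 53.8% and 50% in Sl/Sl clusters. In endothelium the wild type libraries were at 24.7% and 26.6% and the Sl/Sl libraries at 29.6% and 47.1%. The cell types did not overlap, though Sl/Sl endothelium replicate 2 came within a few points of the lowest cluster library. The means were 32% ± 10.2 (SD, n = 4) in endothelium and 58.7% ± 8.07 (SD, n = 4) in clusters, a difference of -26.7 points with a two-sided exact permutation p of 0.0286, the smallest that 4 against 4 libraries allow. Adjusted over the 4 within-library measures tested, the exact p was 0.0571.

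Tet1 made up 18.4% and 20.7% of the summed Tet RPKM in wild type clusters and 13.9% and 14.7% in Sl/Sl clusters, against 7.94% and 8.73% in the endothelium of wild type and 9.51% and 10.3% in that of Sl/Sl embryos. Its share was lower in each of the 4 endothelial libraries than in any cluster library, although the Tet1 level itself overlapped between the cell types. Within Sl/Sl the level ran the other way, at 24.5 and 27.2 CPM in endothelium against 16.3 and 20.6 CPM in clusters. The mean shares of Tet1 were 9.11% ± 1 (SD, n = 4) in endothelium and 16.9% ± 3.19 (SD, n = 4) in clusters, with an exact permutation p of 0.0286 and an adjusted p of 0.0571. Tet2 made up 30.5%, 32.2%, 47.5% and 40.7% in the clusters and 47.1%, 64.1%, 63.6% and 55% in the endothelium, in the order wild type then Sl/Sl. Here Sl/Sl clusters replicate 1 lay just above wild type endothelium replicate 1. The means were 37.7% ± 7.89 (SD, n = 4) and 57.4% ± 8.06 (SD, n = 4), with an exact permutation p of 0.0571 and an adjusted p of 0.0762.

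The summed RPKM of Dnmt1, Dnmt3a and Dnmt3b was between 6.86 and 10.4 times that of the 3 Tet genes in the clusters and between 1.31 and 2.72 times in endothelium. The lowest cluster value belonged to wild type clusters replicate 1 and the highest endothelial value to wild type endothelium replicate 1. This ratio is given as a description and was not tested.

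**Figure D3:**
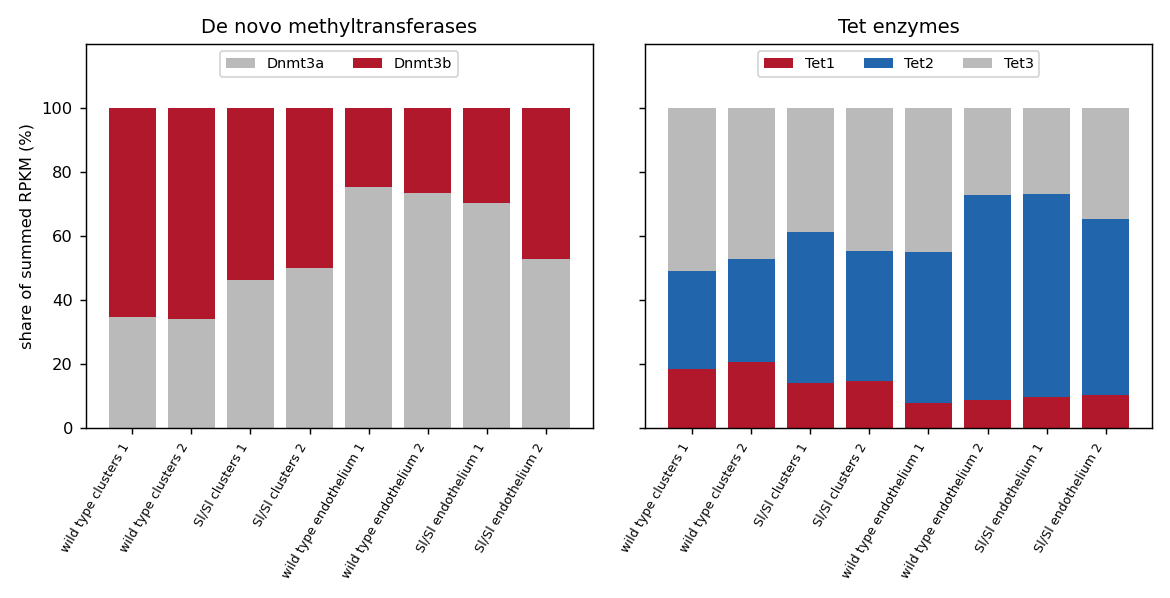
Share of each gene in the summed RPKM of the de novo pair (left) and of the 3 Tet genes (right) in each of the 8 libraries, in percent, as stacked bars that add to 100. The Dnmt3b share lies between 50% and 65.9% in the 4 cluster libraries and between 24.7% and 47.1% in the 4 endothelial libraries, and the Tet1 share is at most 10.3% in endothelium.

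The comparison of Sl/Sl with wild type clusters asked whether the loss of Kitl alters these genes in the cells that carry the Kit receptor. No gene passed an adjusted p of 0.1 in edgeR, with 0% of 13908 called, and 587 genes (4.22%) had an unadjusted p under 0.05. All 7 genes had a negative log2 fold change, lower in Sl/Sl, and their median was -0.68 against 0.03 over all genes tested. Dnmt3b, with 123 and 145 CPM in Sl/Sl against 238 and 259 in wild type, had a log2 fold change of -0.89 (SE 0.3, adjusted p = 0.987, edgeR). Its unadjusted p in edgeR was 0.0145, the only one of the 7 under 0.05. DESeq2 gave it an adjusted p of 0.246. The other values were -1.09 (SE 0.66) for Tet1, -0.90 (SE 0.44) for Tet3, -0.68 (SE 0.4) for Dnmt1, -0.65 (SE 0.49) for Uhrf1, -0.17 (SE 0.52) for Tet2 and -0.05 (SE 0.34) for Dnmt3a, each with an adjusted p of 1 in edgeR.

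The libraries of the genotypes did not overlap for Dnmt3b, Uhrf1, Tet1 and Tet3, 4 of 7 genes, against 32.7% of all genes tested. For Uhrf1 this was a near tie, at 101.07 CPM in wild type clusters replicate 2 and 100.93 CPM in Sl/Sl clusters replicate 1. Wild type clusters replicate 1 weighed on several of these values. Without it the log2 fold change was -0.17 for Dnmt1, -0.13 for Uhrf1, -0.42 for Tet3 and -0.78 for Tet1. The value of Dnmt3b stayed between -1.01 and -0.78 whichever library was left out.

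Other cell markers differed between the cluster libraries beside these values. The 14 hematopoietic markers summed to 1861 and 2032 CPM in wild type and to 1447 and 1545 CPM in Sl/Sl clusters, without overlap and with 0 of 14 at 0 counts. The 12 erythroid markers summed to 68.3 and 32.2 CPM in wild type and to 266 and 24.4 CPM in Sl/Sl clusters, with 5 or 6 of 12 at 0 counts in each. Sl/Sl clusters replicate 1 was the high one, with 2701 counts of the embryonic globin gene Hbb-y. Of the 6 erythroid markers tested, 5 had a positive value in Sl/Sl against wild type clusters, with a median of 2.66, and none was called. Markers of endothelium, the cell type with less Dnmt3b, summed to 1324 and 441 CPM in wild type clusters and to 2971 and 798 CPM in Sl/Sl clusters, with 0 of 14 at 0 counts in any of them. The summed level of 12 macrophage markers was 819 and 278 CPM in wild type and 864 and 429 CPM in Sl/Sl clusters, with at most 2 of the 12 at 0 counts. That of 12 mesenchymal markers was 1026, 1233, 410 and 5639 CPM in the same order, so that Sl/Sl clusters replicate 2 stood out. The 12 germ cell markers summed to 147 CPM in wild type clusters replicate 1 and to between 29.3 and 41.5 CPM in the other 3 cluster libraries, with 2 of 12 at 0 counts in the first and 5 or 6 in the others. Dppa3 alone made up 76.7 CPM of the 147. In the 4 endothelial libraries the same list summed to between 78.5 and 123 CPM, of which Sall4 made up between 45.9 and 96 CPM, so that the sum does not mark germ cells by itself. The part of these cells in the genotype values was not tested.

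In endothelium the genotype comparison again gave no gene at an adjusted p of 0.1 in edgeR (0%), with 580 genes (4.17%) at an unadjusted p under 0.05. None of the 7 genes was among them. Dnmt3b had 27.1 and 30 CPM in Sl/Sl against 18.6 and 17.5 in wild type, a log2 fold change of 0.66 (SE 0.3, unadjusted p = 0.054 and adjusted p = 1, edgeR), and was the 1 of 7 genes whose libraries did not overlap, against 28.5% of all genes tested. The direction for Dnmt3b was thus opposite to that in clusters. The other 6 lay between -0.10 (Dnmt3a) and 0.27 (Tet1), with standard errors from 0.34 to 0.66.

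The difference of the genotype effects between the cell types was tested as an interaction. In edgeR no gene passed (0%, smallest adjusted p 0.621), and 736 genes (5.29%) had an unadjusted p under 0.05. Dnmt3b was the 1 of the 7 genes among these, at 1.55 (SE 0.42), with an unadjusted p of 0.00486 and an adjusted p of 0.902 in edgeR. With DESeq2 the value was 1.56 and the adjusted p 0.0823, so that this interaction was called by DESeq2 and not by edgeR. It stayed between 1.44 and 1.67 whichever library was left out, with adjusted p of at least 0.667 in edgeR. The interaction values of Dnmt1, Uhrf1, Tet1, Tet2 and Tet3 were between 0.23 and 1.36 and that of Dnmt3a was -0.04, with standard errors from 0.48 to 0.93.

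**Figure D4:**
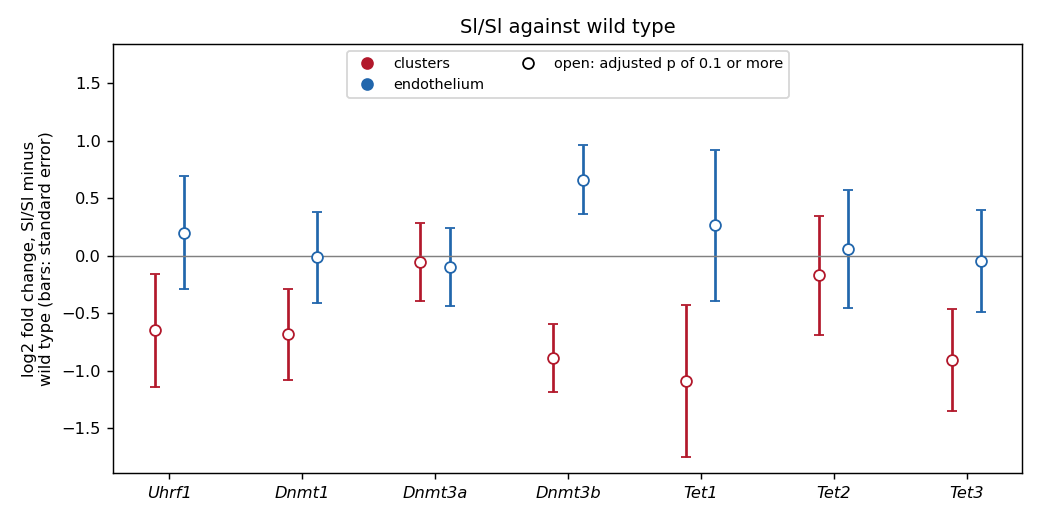
log2 fold change of Sl/Sl minus wild type for the 7 tested genes in clusters and in endothelium, with standard errors; all points are open because none passed an adjusted p of 0.1 in edgeR. Dnmt3b lies at -0.89 in clusters and at 0.66 in endothelium, and Dnmt3a lies near 0 in both.

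Genes that act with the writers and erasers were read from the same test of endothelium against clusters over both genotypes. Among 7 partners of maintenance methylation 6 were tested, 3 fell and none rose, against 8.12% of all genes tested that were lower and 8.48% higher. These were Lig1, the replicative DNA ligase (-1.24, SE 0.33, adjusted p = 0.0412, edgeR), Cdca7 (-1.23, SE 0.26, adjusted p = 0.0179, edgeR) and Hells (-0.79, SE 0.24, adjusted p = 0.071, edgeR), the chromatin remodeller with which Cdca7 forms a complex. Cdca7 had 205, 169, 166 and 160 CPM in the clusters and 64, 112, 50.9 and 75.7 in endothelium, with no overlap. The adjusted p rose above 0.1 when single libraries were left out for Hells (up to 0.2) and Lig1 (up to 0.108). The median of the list was -0.60 against -0.07 over all genes tested. The list shares Pcna with the S phase genes given below, whose median was -0.74, and was not tested apart from them.

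Of 9 methyl-CpG readers and their partners, 1 rose and 1 fell, a share near the 16.6% of all genes tested, so that the count is no result about the readers. Zfp57, a zinc finger protein that guards imprinted methylation, was higher in endothelium (1.24, SE 0.41, adjusted p = 0.0889, edgeR), and its partner Trim28 was lower (-0.62, SE 0.18, adjusted p = 0.061, edgeR). Zfp57 had 19.3 and 12.3 CPM in wild type clusters and 39.7 and 43.4 in Sl/Sl clusters, and between 29.7 and 79.7 in endothelium, so that the cell types overlapped. Both calls were lost when some single libraries were left out, with adjusted p up to 0.324 for Zfp57 and 0.186 for Trim28. Without wild type endothelium replicate 2 the Zfp57 value was 0.79. The median of the list was 0.27 against -0.07 over all genes tested.

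Of 10 genes of base excision and demethylation 9 were tested, 2 rose and 1 fell, against 16.6% of all genes tested in either direction. The median of the list was -0.64, with 5 of 9 values negative. Gadd45g (1.18, SE 0.27, adjusted p = 0.0252, edgeR) and Gadd45b (4.42, SE 1.43, adjusted p = 0.086, edgeR), stress-induced adaptors linked to demethylation, were higher in endothelium. Parp1, which binds DNA breaks, was lower (-1.21, SE 0.32, adjusted p = 0.0414, edgeR). Gadd45b had 0, 20, 2 and 8 counts in the clusters and 153, 64, 239 and 68 in endothelium. With so few counts in the clusters its value was unsteady, at 7.49 without wild type clusters replicate 2, which holds most of them, and between 3.93 and 4.96 without each other library. Its adjusted p reached 0.224 when single libraries were left out.

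Among 8 partners and cofactor enzymes of the Tet proteins 1 rose and 1 fell, against 16.6% of all genes tested in either direction. They were the isocitrate dehydrogenase genes Idh1 (0.59, SE 0.19, adjusted p = 0.0851, edgeR) and Idh2 (-0.51, SE 0.17, adjusted p = 0.0854, edgeR), whose products make the 2-oxoglutarate that Tet enzymes consume. Each lost its call in 7 of the 8 fits that left out a library. Of 7 genes of the cycle that supplies the methyl donor S-adenosylmethionine (SAM), none rose and 2 fell, against 8.12% of all genes tested that were lower. They were Shmt1 (-1.95, SE 0.51, adjusted p = 0.0414, edgeR) and Ahcy (-1.52, SE 0.51, adjusted p = 0.0922, edgeR). Ahcy, which clears the product of every methyl transfer, lost its call in 7 of 8 such fits and was at -2.21 in the other, without Sl/Sl endothelium replicate 1, and Shmt1 had an adjusted p of up to 0.138 in them. The medians were -0.59 and -0.72.

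Because Uhrf1 and Dnmt1 are known to be transcribed mostly in dividing cells, the cell cycle lists stand beside them. All 20 S phase genes had a negative value, lower in endothelium, and 8 of them were called, against 8.12% of all genes tested that were called lower, with a median of -0.74 against -0.07 over all genes tested. Prim1 was at -1.29, Mcm6 at -1.21, Mcm7 at -1.11 and Mcm5 at -0.84. Of 20 mitosis genes 19 had a negative value and 9 were called, against the same 8.12%, among them Kif11 (-1.34), Cdc20 (-1.34), Aurka (-1.26) and Top2a (-1), with a median of -0.59. The values of Dnmt1 (-0.66) and Uhrf1 (-0.62) ran from -0.88 to -0.41 and from -1.04 to -0.36 when single libraries were left out. These ranges show the weight of single libraries and not the error of the values. Within libraries, log2 CPM of Uhrf1 minus the mean of the S phase list was -0.29 ± 0.66 (SD, n = 4) in endothelium and -0.56 ± 0.49 (SD, n = 4) in clusters, with an exact permutation p of 0.486. With so few libraries this test cannot show that Uhrf1 followed the list. The part of cell division in the values of Dnmt1, Uhrf1, Dnmt3a and Dnmt3b was not tested.

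None of these lists held a called gene in either genotype comparison in edgeR. In endothelium all 20 mitosis genes had a positive log2 fold change of Sl/Sl against wild type, with a median of 0.57 against 0.00 over all genes tested, while 12 of 20 S phase genes had a negative value, with a median of -0.11.

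**Figure D5:**
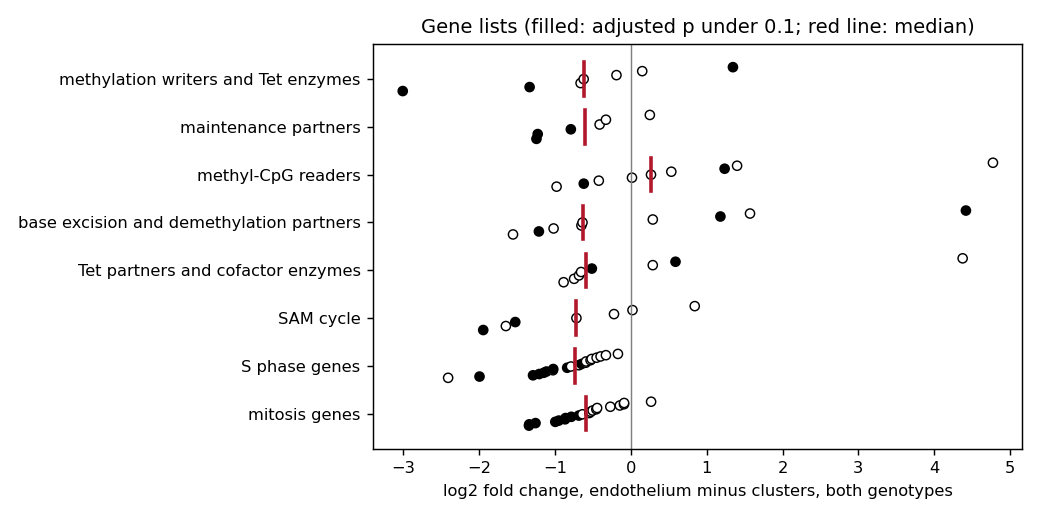
log2 fold change of endothelium minus clusters over both genotypes for each tested gene of the methylation genes and of 7 related lists, with filled points for an adjusted p under 0.1 in edgeR and a red line at each list's median. All 20 S phase genes lie below 0, and Dnmt3b at -3.01 is lower than every other gene shown.

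The genes whose log2 CPM ran most like each member over the 8 libraries are given as a description, since the points fall into the same cell types and genotypes. For Dnmt3b they were Syce2 (Pearson's r = 0.991) and Tpd52 (0.99), and 173 genes had an r over 0.95. For Dnmt3a they were Atp5a1 (0.987) and Ncoa7 (0.982), with 61 such genes. For Tet2 they were Nf1 (0.973) and Atp5o (0.967), for Dnmt1 Mepce (0.985) and Fkbp5 (0.981), and for Uhrf1 Pus3 (0.966) and Mtrf1l (0.962). Tet1 ran most like Mrps18c (0.982) and Mrpl33 (0.965), and Tet3 most like Sfpq (0.945) and Ercc6 (0.918). Tet3 was the 1 of the 7 with no gene over 0.95.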

How the data were processed

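The authors sorted 100 cells per library, prepared Smart-seq2 libraries, sequenced 75-base read pairs, aligned them to mm9 with STAR 2.4.2a, merged lanes and counted reads per gene with featureCounts (Subread 1.4.5). They deposited whole-number counts, not normalized, beside the exon coordinates and length of every gene. The gene annotation, the strand setting and the handling of reads with several matches are not given in the sources used here.

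Counts were tested in R 4.3.3 with edgeR 4.0.16 (quasi-likelihood, TMM factors, filterByExpr on the 4 groups, 1 fit of 8 libraries with 4 group means, Benjamini-Hochberg over 13908 genes, threshold 0.1 as in the study's methods). The common dispersion was 0.667 with 4 residual degrees of freedom. CPM used TMM-scaled totals, RPKM used plain totals, and log2 CPM used a prior count of 2. Shares within libraries were compared with exact permutation tests (scipy 1.17.1), read at the same threshold of 0.1 and adjusted over 4 measures. The fit was tested on simulated data with 200 changed genes. Promoter windows came from RefSeq (GRCm38.p6), and repeated 75-base windows were counted in the mm9 genome.

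The members and the lists were chosen with earlier results of these data known. All 9 members are named, and of the other pathway lists up to 4 genes each that passed in the comparison over both genotypes. Alternatives were DESeq2 1.42.0, median-of-ratios (RLE) factors, no filter, at least 10 counts in every library, a threshold of 0.05, the replicate number as a block, 4 libraries of a cell type, a log2 ratio with a pseudocount of 0.5 RPKM, and leaving out each library. Those for the pathway lists were added after seeing the data. Gene names that a spreadsheet had turned into dates are not named.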

Additional observations from a re-analysis of the deposited data

Results flagged for a closer look

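The share of Dnmt3b in the summed RPKM of Dnmt3a and Dnmt3b moved in opposite directions with genotype in the 2 cell types. It was 51.9% in Sl/Sl against 65.6% in wild type clusters and 38.4% in Sl/Sl against 25.7% in wild type endothelium, so that both Sl/Sl libraries lay below both wild type libraries in clusters and above them in endothelium. The Sl/Sl endothelial libraries were far apart, at 29.6% and 47.1%, and the first was close to the higher wild type library at 26.6%. In these 2 Sl/Sl libraries Dnmt3b was at 27.1 and 30 CPM and Dnmt3a at 148 and 77.6 CPM. The genotype differences were -13.7 and 12.7 points and differed by 26.4 points. This difference was not tested, and 2 against 2 libraries allow no exact p below 0.333.

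The share of Tet1 among the 3 Tet genes behaved likewise. It was 14.3% against 19.6% in clusters and 9.89% against 8.33% in endothelium, differences of -5.26 and 1.55 points that differed by 6.82 points. This difference was not tested either.

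Uhrf1 in wild type clusters replicate 1, at 188 CPM and 55.5 RPKM, lay far from the other 3 cluster libraries, which ran from 83.7 to 101 CPM and from 24.4 to 28.3 RPKM. Its gap passed Dixon's limit for 4 samples on both of these scales and not on the log2 scale. In total, 50 sets of 4 libraries of a cell type were examined, the 7 genes as CPM, RPKM and log2 CPM and the 4 within-library measures, and these were the 2 that passed. Chance passes about 1 in 20 such sets, and the 4 libraries join both genotypes.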

How the results depend on the processing

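Among 441 results recomputed under settings other than leaving out a library, 395 kept direction and side of the threshold, 35 counts or values moved, 7 newly passed, 4 no longer passed and 0 changed sign. Genes called over both genotypes numbered 2310, with 3616 by DESeq2 and 1488 at an adjusted p of 0.05. In wild type they numbered 1146, with 2580 by DESeq2, 1990 with no filter and 657 at 0.05. In Sl/Sl they numbered 393, with 1614, 1266 and 222. Sl/Sl against wild type gave 0 in clusters, with 175 by DESeq2, 253 with no filter and 9 with at least 10 counts in every library, and 0 in endothelium, with 179, 65 with no filter and 2 in the fit of 4 libraries. The interaction gave 0, with 175 by DESeq2 and 179 with no filter. The cause of these shifts was not tested. Of the 7 methylation genes, wild type kept 1 call at 0.05, Sl/Sl had 3 by DESeq2, 2 with RLE factors, 3 with no filter and 2 with at least 10 counts in place of 1, and the interaction had 1 by DESeq2. The replicate numbers were not shown to pair the samples: deviations of same-numbered libraries correlated by 0.16 in clusters and 0.00 in endothelium. With the replicate number as a block, 8 genes were called in clusters in place of 0, and the other counts were 2126, 1180, 452, 0 and 0. Leaving out each library gave 1563 to 2087 genes over both genotypes (2 to 3 members), 592 to 1329 in wild type (1 to 2 members), 182 to 633 in Sl/Sl (1 to 2 members), 6 to 76 for genotype in clusters, 0 to 1 in endothelium and 0 to 27 for the interaction (0 members in each). The most for genotype in clusters came without wild type clusters replicate 1. The share differences ran from -31.7 to -24.3 (Dnmt3b), -8.82 to -6.55 (Tet1) and 17.3 to 23.2 points (Tet2), and the Uhrf1 difference from 0.11 to 0.60. For each share the adjusted p of the exact permutation test ran from 0.0381 to 0.114, so each lost its call in at least 1 of these fits. The smallest exact permutation p is 0.0286 for 3 against 4 libraries as well. None of the uncalled values that changed sign when a library was left out was called in any of these fits. For Sl/Sl against wild type in endothelium they ran from -0.39 to 0.28 (Dnmt1), -0.63 to 0.29 (Dnmt3a), -0.32 to 1.04 (Uhrf1), -0.23 to 1.05 (Tet1), -0.52 to 1.06 (Tet2) and -0.27 to 0.19 (Tet3), and in clusters from -0.29 to 0.16 (Dnmt3a) and -0.47 to 0.19 (Tet2). The interaction ran from -0.57 to 0.32 (Dnmt3a) and -0.35 to 1.21 (Tet2). Endothelium against clusters ran from -0.57 to 0.060 (Tet1) and -0.063 to 0.39 (Tet3), and in wild type from -0.68 to 0.21 (Tet3). With 2 libraries a group, the standard errors of the genotype differences ran from 0.30 to 0.66, which limits what they can show.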

Other observations

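All 8 partners and cofactor enzymes of the Tet proteins had a negative interaction of genotype and cell type, with a median of -1.34 on the log2 scale against -0.10 over all genes tested, and 0 of 8 was called in edgeR. Other lists ran the same way, with 12 of 12 mesenchymal markers negative (median -1.78), 5 of 6 erythroid (-2.50) and 9 of 11 macrophage markers (-1.29). All 20 mitosis genes were positive (median 0.53). Wild type endothelium replicate 1, the lowest endothelial library for the mitosis genes, also enters this value, and its weight was not tested. Wt1 is both a listed Tet partner and a listed mesenchymal marker, with 288 counts in wild type endothelium replicate 1 and 70 in Sl/Sl clusters replicate 2. Idh1 had 144 and 130 CPM in wild type clusters, 245 and 236 in Sl/Sl clusters, 267 and 383 in wild type endothelium, with 203 and 255 in Sl/Sl endothelium. Gadd45g had 35.4 and 28.2 CPM in wild type clusters, 113 and 91.3 in Sl/Sl clusters, 118 and 148 in wild type endothelium, with 88.5 and 162 in Sl/Sl endothelium. For both genes the Sl/Sl clusters lay above the wild type clusters, and neither genotype difference was called. These genes were singled out after their values were seen, and no explanation was examined.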
